A study of Mus musculus with 12 samples.

Results

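The genes described here are the glycolytic isozyme genes of 5 enzyme steps: *Hk1* and *Hk2* (hexokinase), *Pfkm*, *Pfkl*, and *Pfkp* (phosphofructokinase), *Aldoa* (aldolase), *Pgam1* and *Pgam2* (phosphoglycerate mutase), and *Eno1* and *Eno3* (enolase). They were chosen by name from the raw count table, as 10 of the 55536 genes listed there, and all 10 passed the filter on low counts. RNA-seq counts were examined in C2C12 GFP cells, a mouse myoblast line that carries green fluorescent protein and fuses into myotubes in low-serum medium. The cells were differentiated on uncoated plates (control) or on a coating of Collagen I, of fibronectin, or of Geltrex™, a basement membrane extract of mainly laminin, collagen IV, and entactin. Each of the 4 groups had 3 samples, the same line and differentiation medium were used in all, and the day of differentiation of the sequenced samples is not given in the sources used here. The study asked how the coating bears on slow and fast muscle fiber type, in which glycolytic metabolism is one of the differences. A single cell line on plastic holds none of the nerve, vessel, or load of muscle, and nothing in the labels says that the 3 samples of a group came from separate cultures, so p-values measure only the spread between these samples, which may be technical.

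Glycolysis splits glucose into pyruvate, and several of its steps are run by isozymes, proteins from different genes that catalyze the same reaction. Muscle fibers carry their own forms of phosphofructokinase (*Pfkm*), phosphoglycerate mutase (*Pgam2*), and β-enolase (*Eno3*), whereas *Pfkl*, *Pfkp*, *Pgam1*, and *Eno1* are the forms of liver, platelets, brain, and dividing cells. *Eno1* and *Pgam1* are the forms of myoblasts, and *Eno3* and *Pgam2* are turned on as myoblasts differentiate; *Hk2* is the insulin-responsive hexokinase of muscle and fat, *Hk1* the general one, and *Aldoa* is the aldolase of both muscle and most other cells.

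Total counts per sample lay between 22520404 and 27351766. Replicates differed by more than sampling noise in every group, with a chi-square per degree of freedom of 2.18 to 4.54 between Geltrex™ samples and 7.71 to 64.6 between samples of the other groups, in which the highest values belong to pairs with Collagen I replicate 3. The marker genes of the labelled cell type moved with the coatings. The 17 myotube genes summed to between 12340 and 13700 CPM (counts relative to the library size as scaled by TMM) in the control samples and between 12980 and 13890 on Collagen I, but only to between 3942 and 4520 on fibronectin and between 5735 and 6209 on Geltrex™. All 17 were lower on fibronectin and on Geltrex™ than in the control, with a median log2 fold change of -1.93 and -1.43, against a median of -0.02 and -0.01 over all 14499 genes tested. Of all genes, 14.7% were called lower on fibronectin and 16.6% on Geltrex™. The 13 genes listed for myoblasts and for proliferation summed to between 459 and 517 CPM in the control, between 392 and 455 on Collagen I, between 877 and 1071 on fibronectin, and between 911 and 981 on Geltrex™. Against the control, 8 of these were higher on fibronectin (61.5% called, against 31.9% of all genes). On Geltrex™, 8 were higher and 1 lower (69.2%, against 33.0%). The 8 were the same proliferation genes on both coatings: *Mki67*, *Top2a*, *Ccnb1*, *Ccna2*, *Cdk1*, *Mcm2*, *Mcm5*, and *Pcna*. By contrast, *Pax7*, *Myf5*, *Id1*, and *Id3* were not called on either coating, and *Myod1* was lower on Geltrex™ and not called on fibronectin. The part of both lists in the isozyme differences below was not tested. In bulk RNA, fewer myotubes and less RNA of a gene per myotube cannot be told apart. The 6 fat cell markers summed to at most 18.1 CPM, nearly all from *Pparg*, with *Adipoq* at no more than 2 counts in a sample, and the 7 macrophage and endothelial markers summed to at most 1.69 CPM with *Adgre1* at 0. Of 9 fibroblast genes, many of which myoblasts also express, *Thy1* was at 0 in every sample, and their sum ran from 6613 to 7010 CPM on Geltrex™, below the control (7263 to 7818) and Collagen I (7104 to 7815), and from 6608 to 7893 CPM on fibronectin. Single genes moved within this sum, most of which is *Col3a1*, a collagen gene that was not called against the control on any coating. Against the control, 1 of the 8 tested was higher and 3 were lower on fibronectin (50% called, against 31.9% of all genes). On Geltrex™ 2 were higher and 4 lower (75%, against 33.0%), and on Collagen I 1 was lower (12.5%, against 1.12%). *Lum* was 4.71-fold and *Col1a1* 2.27-fold lower on Geltrex™ than in the control. *Pparg* was 1.49-fold higher on fibronectin and 1.39-fold higher on Geltrex™ (edgeR adjusted p = 0.00163 and 0.00546). These 4 genes were named after their values were seen, and the part of either list in the isozyme differences was not tested.

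On fibronectin and Geltrex™, the muscle forms *Pfkm*, *Pgam2*, and *Eno3* were lower than in the control, as was *Aldoa*, whereas the general forms were higher or were not called. A gene was called when edgeR's quasi-likelihood test gave a Benjamini-Hochberg adjusted p of at most 0.05 over all genes tested. On fibronectin, 5 of 10 were called against the control, where 31.9% of all genes were, 17.1% higher and 14.7% lower: *Pfkm*, *Aldoa*, *Pgam2*, and *Eno3* fell and *Pgam1* rose. On Geltrex™, 8 of 10 were called, against 33.0% of all genes, 16.4% higher and 16.6% lower: the same 4 fell and *Hk1*, *Pfkl*, *Pgam1*, and *Eno1* rose. On Collagen I, 0 of 10 were called against the control, where 1.12% of all genes were, 0.200% higher and 0.917% lower. *Pfkl* and *Pgam2* had an unadjusted p under 0.05 there, and DESeq2 also called 0. Collagen I exceeded fibronectin for *Pfkm*, *Aldoa*, *Pgam2*, and *Eno3* and lay below it for *Pfkp* and *Pgam1*, so that 6 of 10 were called against 45.0% of all genes (22.1% higher and 22.9% lower). Against Geltrex™, Collagen I was higher for the same 4 genes and lower for *Pfkl*, *Pfkp*, *Pgam1*, and *Eno1*, 8 of 10 against 37.1% of all genes, of which 18.2% were higher and 19.0% lower. Between fibronectin and Geltrex™, 3 of 10 were called, against 19.3% of all genes (10.3% higher and 9.06% lower), and *Pfkl*, *Aldoa*, and *Pgam2* were all lower on fibronectin. The 6 comparisons share samples, so they are not separate evidence. *Hk2* was called in none of them.

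**Figure D1:**
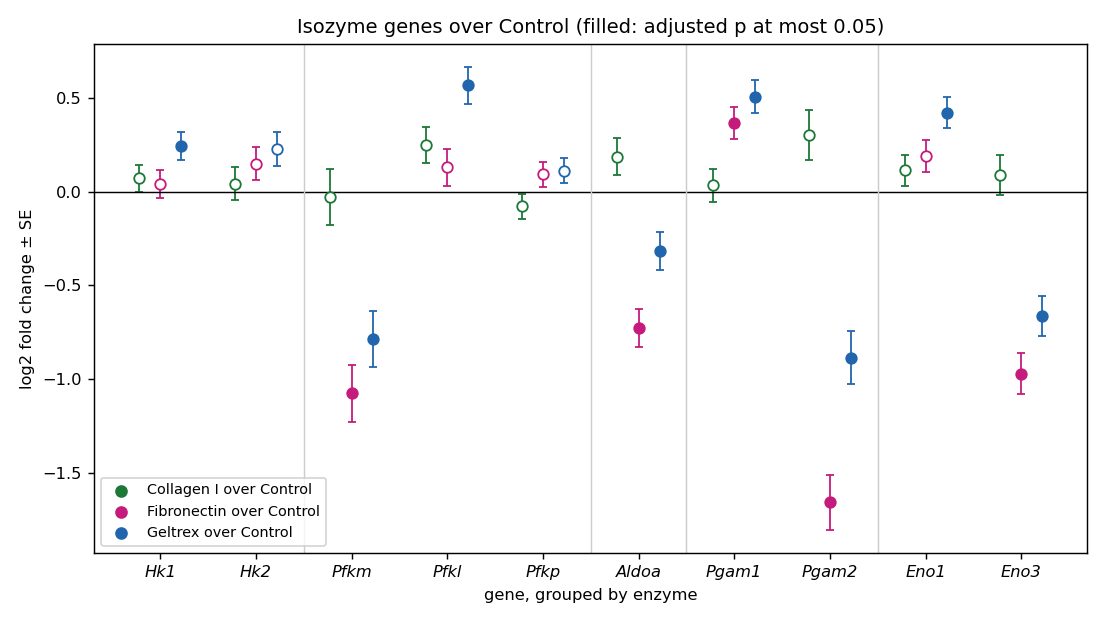
Log2 fold change over the control (y axis, ± SE) of each of the 10 isozyme genes (x axis, grouped by enzyme), for Collagen I in green, fibronectin in magenta, and Geltrex™ in blue; filled points have an adjusted p of at most 0.05. *Pfkm*, *Aldoa*, *Pgam2*, and *Eno3* lie below 0 on fibronectin and Geltrex™, *Pgam2* on fibronectin is the lowest at -1.66, and no Collagen I point is filled.

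Counting reads per isozyme requires that their messages differ in sequence. The coding sequences of 2 pairs whose balance changed are shown from their start codon, aligned without gaps, with the bases that differ within a pair in capitals. They are the first 90 coding bases in the GENCODE M21 transcripts of GRCm38.
Pgam1: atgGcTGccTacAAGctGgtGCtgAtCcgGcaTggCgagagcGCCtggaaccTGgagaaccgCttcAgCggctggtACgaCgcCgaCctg
Pgam2: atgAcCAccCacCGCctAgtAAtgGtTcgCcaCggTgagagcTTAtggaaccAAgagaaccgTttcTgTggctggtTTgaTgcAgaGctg
Eno1: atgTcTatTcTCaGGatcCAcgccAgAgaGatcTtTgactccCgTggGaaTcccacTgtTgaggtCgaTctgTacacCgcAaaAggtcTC
Eno3: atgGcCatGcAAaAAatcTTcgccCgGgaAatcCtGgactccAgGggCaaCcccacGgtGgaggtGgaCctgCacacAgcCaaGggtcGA
Each pair differs at 28 of these 90 bases. Over the whole coding sequence, *Pgam1* and *Pgam2* are identical at 74.8% of 762 aligned bases and *Eno1* and *Eno3* at 76.7% of 1305. The longest run without a difference is 28 bases in the first pair and 20 in the second. The other pairs are as far apart, with 71.2% identity between *Hk1* and *Hk2*, 69.6% between *Pfkm* and *Pfkl*, 68.5% between *Pfkm* and *Pfkp*, and 75.6% between *Aldoa* and its brain form *Aldoc*.

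The promoters of the *Pgam* pair and of *Eno3* are shown because *Pgam2* and *Eno3* fell together while *Pgam1* rose. Each is the 250 bases before the RefSeq transcription start in GRCm38.p6, read on the strand of the gene: chr11:5803797-5804046 on the minus strand for *Pgam2*, chr11:70656926-70657175 on the plus strand for *Eno3*, and chr19:41911621-41911870 on the plus strand for *Pgam1*. Capitals mark E-boxes, CANNTG, the motif that MyoD and other helix-loop-helix factors bind, and the MEF2 consensus.
Pgam2: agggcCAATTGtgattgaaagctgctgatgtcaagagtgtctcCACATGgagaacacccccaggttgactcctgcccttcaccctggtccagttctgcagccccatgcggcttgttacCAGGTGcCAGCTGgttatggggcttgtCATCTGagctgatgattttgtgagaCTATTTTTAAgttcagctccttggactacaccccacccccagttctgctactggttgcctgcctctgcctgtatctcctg
Eno3: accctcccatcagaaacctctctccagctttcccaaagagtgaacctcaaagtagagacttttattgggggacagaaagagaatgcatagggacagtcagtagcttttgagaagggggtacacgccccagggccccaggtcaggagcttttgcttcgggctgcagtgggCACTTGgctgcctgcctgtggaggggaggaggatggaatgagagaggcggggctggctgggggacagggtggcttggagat
Pgam1: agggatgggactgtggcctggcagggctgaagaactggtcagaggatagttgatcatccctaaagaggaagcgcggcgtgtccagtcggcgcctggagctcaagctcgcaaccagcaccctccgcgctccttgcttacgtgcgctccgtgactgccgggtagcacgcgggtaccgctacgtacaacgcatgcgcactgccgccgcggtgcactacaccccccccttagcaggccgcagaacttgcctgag
Both motifs read the same on either strand, and they were searched in windows that also hold the first 50 bases after the start. The *Pgam2* window holds 5 E-boxes, one of them CAGCTG, and 1 match to the MEF2 consensus, 80 bases before the start. The *Eno3* window holds 2 E-boxes, of which the second, CAGCTG, lies after the start and outside the stretch printed, and the *Pgam1* window holds 0. E-box counts did not divide the muscle from the general forms, since *Pfkl* has 3, *Hk1* up to 3, and *Eno1* up to 2 in a window, whereas *Hk2* has 0. Of 32851 promoter windows of the same length, 72.3% hold an E-box, 2.1% hold 5 or more, 16.3% hold CAGCTG, and 3.19% match the MEF2 consensus, which was widened to its usual looser form after a stricter form gave no match in the isozyme genes. The table has 18 windows for the 10 genes. Among these, *Pgam2* alone has a MEF2 match and CAGCTG occurs in *Pgam2*, *Eno3*, and 1 of 3 *Aldoa* windows. The CArG box of serum response factor is in 0 of the 18. A match is a run of letters and says nothing of whether a factor was bound.

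Hexokinase phosphorylates glucose on entry and was the step whose isozyme balance changed least as a log2 ratio of counts. *Hk1* (ENSMUSG00000037012, chr10:62268855-62379908, minus strand, GRCm38) was at 211, 227, and 212 CPM in the control samples, 224, 237, and 223 on Collagen I, 232, 205, and 231 on fibronectin, and 253, 262, and 255 on Geltrex™. The Geltrex™ samples were above all others, and the remaining groups overlapped. *Hk1* on Geltrex™ exceeded the control by 0.24 ± 0.07 (SE) on the log2 scale, with an edgeR adjusted p of 0.0179, and this call was lost when the Geltrex™ samples were summed into 1 (adjusted p = 0.216), with no filter on low counts (adjusted p = 0.0509), or when control replicate 1 or 3 or Geltrex™ replicate 2 or 3 was left out (adjusted p from 0.0513 to 0.0674).

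*Hk2* (ENSMUSG00000000628, chr6:82725025-82774454, minus strand) was at 88.8, 101, and 82.1 CPM in the control samples, 98.8, 88.5, and 92.7 on Collagen I, 110, 101, and 90.9 on fibronectin, and 108, 104, and 106 on Geltrex™. Fibronectin overlapped with every other group, whereas the Geltrex™ samples lay above those of the control and Collagen I. The log2 fold change over the control was 0.04 ± 0.09 on Collagen I, 0.15 ± 0.09 on fibronectin, and 0.23 ± 0.09 on Geltrex™, with edgeR adjusted p-values of 0.848, 0.217, and 0.0622. The Geltrex™ value passed the threshold in a fit of only those 2 groups (adjusted p = 0.0393). It also passed without control replicate 2 (adjusted p = 0.0171) or fibronectin replicate 3 (adjusted p = 0.0424), but not in the other fits. Collagen I against Geltrex™ passed only in a fit of those 2 groups (edgeR adjusted p = 0.047, and 0.119 with all groups). The ratio of *Hk2* to *Hk1* counts did not separate the groups, with a mean log2 ratio of -1.26 ± 0.10 (SD, n = 3) in the control, -1.29 ± 0.12 on Collagen I, -1.15 ± 0.17 on fibronectin, and -1.27 ± 0.05 on Geltrex™. An exact permutation test over the 4 groups gave p = 0.518. The widest difference from the control, that of fibronectin, was 0.11 ± 0.11 (SE) on the log2 scale.

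Phosphofructokinase, the main control point of the pathway, is built from muscle (*Pfkm*), liver (*Pfkl*), and platelet (*Pfkp*) subunits, which can mix in 1 enzyme. *Pfkm* (ENSMUSG00000033065, chr15:98092589-98132451, plus strand) was at 167, 184, and 134 CPM in the control samples, 186, 173, and 118 on Collagen I, 82.5, 64.0, and 83.5 on fibronectin, and 97.3, 91.3, and 92.7 on Geltrex™. Every fibronectin sample lay below every Geltrex™ sample, and both groups below all control and Collagen I samples. The lowest of these, Collagen I replicate 3, stood apart from its own group. *Pfkm* fell by 1.08 ± 0.15 on the log2 scale on fibronectin and by 0.79 ± 0.15 on Geltrex™ relative to the control (edgeR adjusted p = 7e-05 and 0.000817). Collagen I exceeded fibronectin 2.07-fold and Geltrex™ 1.69-fold, whereas the difference of Collagen I from the control was -0.03 ± 0.15 and changed sign without Collagen I replicate 3 (0.14). Fibronectin was 1.22-fold below Geltrex™, with an adjusted p of 0.197. With the Geltrex™ samples summed into 1, the calls against the control and Collagen I were just lost (adjusted p = 0.0506 and 0.0574).

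*Pfkl* (ENSMUSG00000020277, chr10:77986947-78010083, minus strand) was at 111, 106, and 92.8 CPM in the control samples, 114, 113, and 140 on Collagen I, 121, 101, and 116 on fibronectin, and 156, 154, and 149 on Geltrex™. The Geltrex™ samples were the highest of the 12, and Collagen I replicate 3, which was low in *Pfkm*, came next. *Pfkl* rose 1.48-fold on Geltrex™ over the control (edgeR adjusted p = 0.000309) and was 1.36-fold higher there than on fibronectin (adjusted p = 0.00478). The difference from Collagen I, 1.25-fold with an adjusted p of 0.0174, was lost without Collagen I replicate 1 or 2 or Geltrex™ replicate 1, and with the Geltrex™ samples summed the calls against Collagen I and fibronectin were both lost (adjusted p = 0.169 and 0.136).

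*Pfkp* (ENSMUSG00000021196, chr13:6579768-6648777, minus strand) moved within a narrow range, from 80.2 to 83.3 CPM on Collagen I, 84.8 to 86.5 in the control, 87.7 to 94.9 on fibronectin, and 90.5 to 94.8 on Geltrex™. Collagen I lay below the control and the control below the other groups without overlap, but these steps were small. Collagen I was 1.12-fold below fibronectin and 1.14-fold below Geltrex™ (edgeR adjusted p = 0.048 and 0.0344). Both calls were lost in edgeR with no filter on low counts (adjusted p = 0.227 and 0.178) and with a block for the replicate number (adjusted p = 0.07 and 0.0524). The call against fibronectin was lost without any 1 sample other than fibronectin replicate 2. It was also lost with at least 10 counts required in every sample (adjusted p = 0.0684) and in a fit of only those 2 groups (adjusted p = 0.158). The call against Geltrex™ was lost without Collagen I replicate 1 or 2 or any 1 Geltrex™ sample. With the Geltrex™ samples summed, the log2 fold changes were -0.18 and -0.20. Of the *Pfkp* exons, 5.58% overlap the opposite strand of *Pitrm1*, a gene with up to 2127 counts in a sample, and whether the counting used strand is not stated.

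Relative to the other subunits, *Pfkm* was lower on fibronectin and Geltrex™ than in the control. The log2 ratio of *Pfkm* to *Pfkl* counts was 0.59, 0.80, and 0.53 in the control samples, 0.70, 0.61, and -0.25 on Collagen I, -0.55, -0.66, and -0.47 on fibronectin, and -0.68, -0.75, and -0.69 on Geltrex™. All samples on fibronectin and Geltrex™ were thus below all others, and Collagen I replicate 3 lay between. The exact permutation test over the 4 groups gave p = 0.00286, or 0.00571 after Benjamini-Hochberg adjustment over the 6 ratios tested. For *Pfkm* to *Pfkp* the mean log2 ratio was 0.90 ± 0.22 (SD, n = 3) in the control, 0.94 ± 0.39 on Collagen I, -0.27 ± 0.17 on fibronectin, and 0.01 ± 0.08 on Geltrex™ (exact p = 0.0026, adjusted 0.00571). Between any 2 groups of 3 samples the exact test cannot go below 0.1, so pairs of groups are described by their differences and overlap only. Relative to the control, the ratio of *Pfkm* to *Pfkl* was 2.3-fold lower on fibronectin and 2.54-fold lower on Geltrex™. Between these coatings the ratio and *Pfkm* ran in opposite directions, with *Pfkm* lower on fibronectin but the log2 ratio higher there by 0.14 ± 0.06 (SE), and *Pfkl* higher on Geltrex™.

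**Figure D2:**
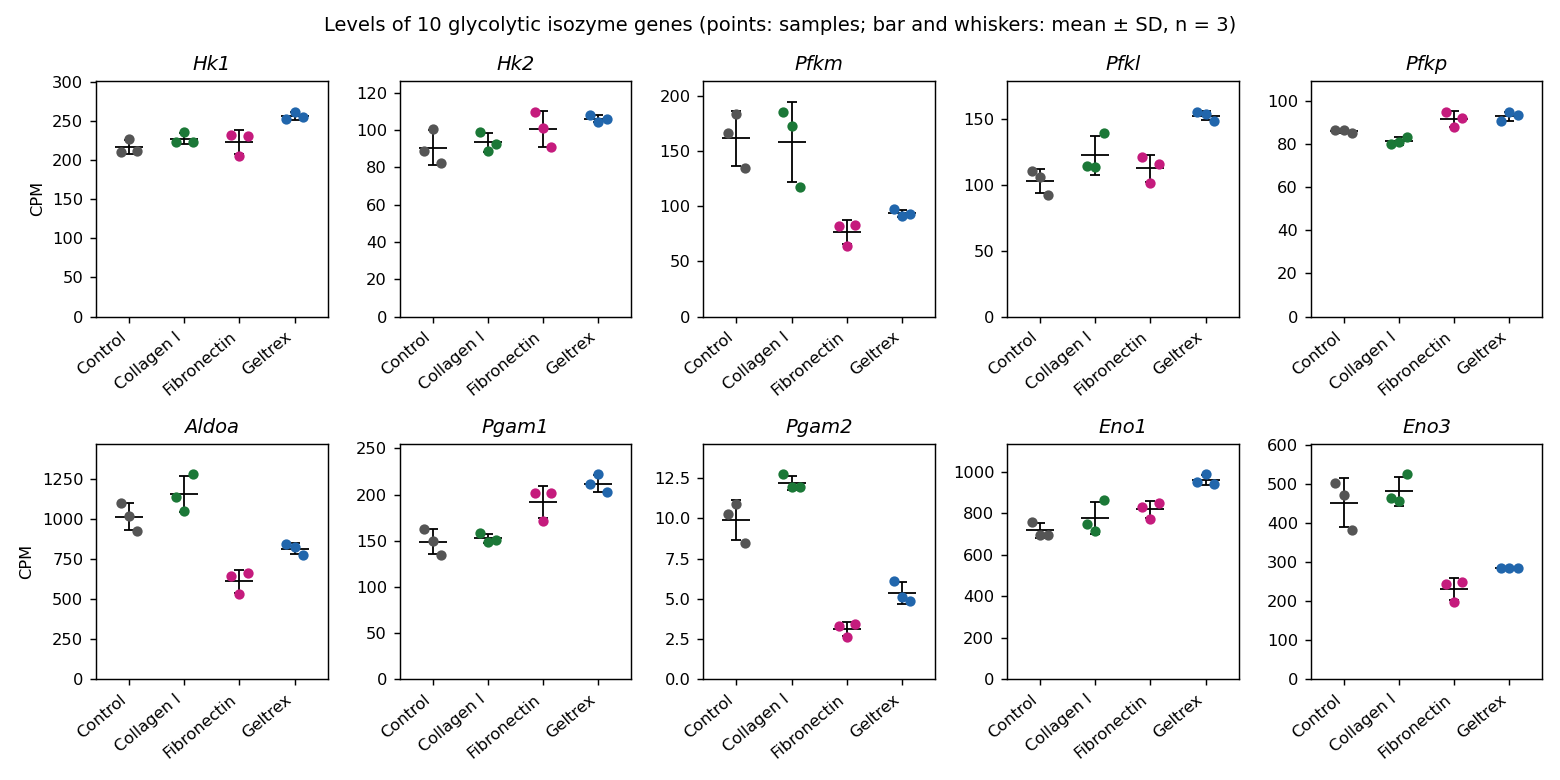
CPM (y axis, linear from 0) of the 10 isozyme genes in the 4 groups; points are samples in replicate order, and bars with whiskers are the mean ± SD of 3 samples. *Pfkm*, *Aldoa*, *Pgam2*, and *Eno3* are lowest on fibronectin, *Pfkl*, *Pgam1*, and *Eno1* are highest on Geltrex™, and Collagen I replicate 3 is the third green point, low in *Pfkm* and high in *Pfkl*, *Aldoa*, *Eno1*, and *Eno3*.

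Aldolase cleaves fructose-1,6-bisphosphate, and *Aldoa* had the highest counts of the 10 genes in the control. *Aldoa* (ENSMUSG00000030695, chr7:126795234-126800751, minus strand) was at 1100, 1018, and 928 CPM in the control samples, 1137, 1053, and 1279 on Collagen I, 647, 530, and 662 on fibronectin, and 846, 825, and 777 on Geltrex™. The order was Collagen I, control, Geltrex™, and fibronectin. Neighbours did not overlap except for Collagen I and the control, which differed by 0.19 ± 0.10 on the log2 scale (edgeR adjusted p = 0.403). Relative to the control *Aldoa* fell 1.66-fold on fibronectin (adjusted p = 6.38e-05) and 1.24-fold on Geltrex™ (adjusted p = 0.0258). The latter call was lost without control replicate 1 or 2, without any 1 Geltrex™ sample (adjusted p up to 0.106), and with the Geltrex™ samples summed into 1 (adjusted p = 0.27). *Aldoa* was also 1.33-fold lower on fibronectin than on Geltrex™ (adjusted p = 0.00943), a call lost with the Geltrex™ samples summed (adjusted p = 0.185). Its partner *Aldoc*, the brain aldolase (ENSMUSG00000017390), had only 5 to 17 counts per sample, and *Aldoa* made up at least 99.9% of aldolase reads per kilobase in each group. The ratio of *Aldoa* to *Aldoc* counts fell with the coatings (exact p = 0.0105, adjusted 0.0125) from a mean log2 of 11.96 ± 0.30 in the control to 11.22 ± 0.45 on Collagen I, 10.43 ± 0.65 on fibronectin, and 10.24 ± 0.30 on Geltrex™, values that rest on those few *Aldoc* counts.

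Phosphoglycerate mutase moves the phosphate of phosphoglycerate and showed the widest change in balance on fibronectin as a log2 ratio of counts, though not as a share of the enzyme. *Pgam2*, the muscle subunit (ENSMUSG00000020475, chr11:5801640-5803733, minus strand), was at 10.3, 10.9, and 8.49 CPM in the control samples, 12.7, 11.96, and 11.99 on Collagen I, 3.31, 2.64, and 3.46 on fibronectin, and 6.11, 5.11, and 4.87 on Geltrex™. No group overlapped with another. These levels rest on 63 to 322 counts per sample, the fewest of the 10 genes. *Pgam2* fell 3.16-fold on fibronectin and 1.85-fold on Geltrex™ relative to the control (edgeR adjusted p = 6.02e-07 and 0.000145), and fibronectin was 1.71-fold below Geltrex™ (adjusted p = 0.00214). Collagen I exceeded fibronectin 3.89-fold and Geltrex™ 2.28-fold (adjusted p = 6.87e-08 and 7.42e-06). The step from the control to Collagen I, 0.30 ± 0.13 on the log2 scale, did not pass (adjusted p = 0.303).

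*Pgam1* (ENSMUSG00000011752, chr19:41911923-41918660, plus strand) was at 162, 150, and 135 CPM in the control samples, 158, 149, and 150 on Collagen I, 202, 172, and 202 on fibronectin, and 211, 222, and 203 on Geltrex™. The control and Collagen I overlapped and lay below the other groups. Over the control, *Pgam1* rose on the log2 scale by 0.37 ± 0.09 on fibronectin and by 0.51 ± 0.09 on Geltrex™ (edgeR adjusted p = 0.00461 and 0.000294), and the difference between fibronectin and Geltrex™ did not pass (-0.14 ± 0.09, adjusted p = 0.267). The log2 ratio of *Pgam2* to *Pgam1* counts was -3.98, -3.77, and -3.99 in the control samples, -3.63, -3.64, and -3.65 on Collagen I, -5.93, -6.01, and -5.86 on fibronectin, and -5.11, -5.43, and -5.37 on Geltrex™. The groups did not overlap, in the order Collagen I, control, Geltrex™, and fibronectin. The exact permutation test gave p = 6.49e-05, the smallest that 4 groups of 3 allow (adjusted 0.00039). The ratio was 4.06-fold lower on fibronectin and 2.63-fold lower on Geltrex™ than in the control. *Pgam2* and *Pgam1* together came to 159 ± 15 CPM (SD, n = 3) in the control, 165 ± 5.3 on Collagen I, 195 ± 18 on fibronectin, and 217 ± 9.6 on Geltrex™, so the sum moved in the direction of *Pgam1*.

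Enolase forms phosphoenolpyruvate, and its muscle β subunit is encoded by *Eno3*. *Eno3* (ENSMUSG00000060600, chr11:70657202-70662513, plus strand) was at 502, 472, and 382 CPM in the control samples, 464, 457, and 524 on Collagen I, 244.2, 198.6, and 249.1 on fibronectin, and 286, 284, and 286 on Geltrex™. The control and Collagen I overlapped, Geltrex™ lay below them, and fibronectin below Geltrex™. *Eno3* fell 1.96-fold on fibronectin and 1.59-fold on Geltrex™ relative to the control (edgeR adjusted p = 6.23e-06 and 0.000172), and Collagen I was 2.09-fold and 1.69-fold above the same 2 groups (adjusted p = 1.82e-06 and 5.2e-05). Between fibronectin and Geltrex™ the difference was -0.31 ± 0.11 on the log2 scale with an adjusted p of 0.0569, which passed the threshold in DESeq2 (0.0343). The difference between Collagen I and the control was 0.09 ± 0.11 and changed sign without control replicate 3 (-0.02).

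*Eno1* (ENSMUSG00000063524, chr4:150236721-150248879, plus strand) was at 759, 697, and 697 CPM in the control samples, 751, 715, and 862 on Collagen I, 832, 773, and 852 on fibronectin, and 953, 988, and 944 on Geltrex™. All Geltrex™ samples exceeded all others, and Collagen I overlapped with both the control and fibronectin. *Eno1* rose 1.34-fold on Geltrex™ over the control (edgeR adjusted p = 0.00104). On fibronectin the log2 fold change was 0.19 ± 0.08 with an adjusted p of 0.0944 in edgeR and 0.0319 in DESeq2. The log2 ratio of *Eno3* to *Eno1* counts was -0.60, -0.56, and -0.87 in the control samples, -0.70, -0.65, and -0.72 on Collagen I, -1.77, -1.96, and -1.77 on fibronectin, and -1.74, -1.80, and -1.72 on Geltrex™. Control and Collagen I samples thus formed the upper range and the other groups the lower, with overlap inside each range. The exact permutation test gave p = 0.00494 (adjusted 0.0074), and the ratio was 2.23-fold lower on fibronectin and 2.11-fold lower on Geltrex™ than in the control. The 2 genes together came to 1170 ± 91 CPM (SD, n = 3) in the control, 1258 ± 114 on Collagen I, 1050 ± 69 on fibronectin, and 1247 ± 22 on Geltrex™. Per kilobase of all annotated exons, the sum was 393.5 ± 40.9 in the control and 421.3 ± 35.7 on Collagen I. It was 284.9 ± 23.6 on fibronectin and 342.8 ± 3.55 on Geltrex™. The mean on Geltrex™ was thus above the control by CPM but below it per kilobase.

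**Figure D3:**
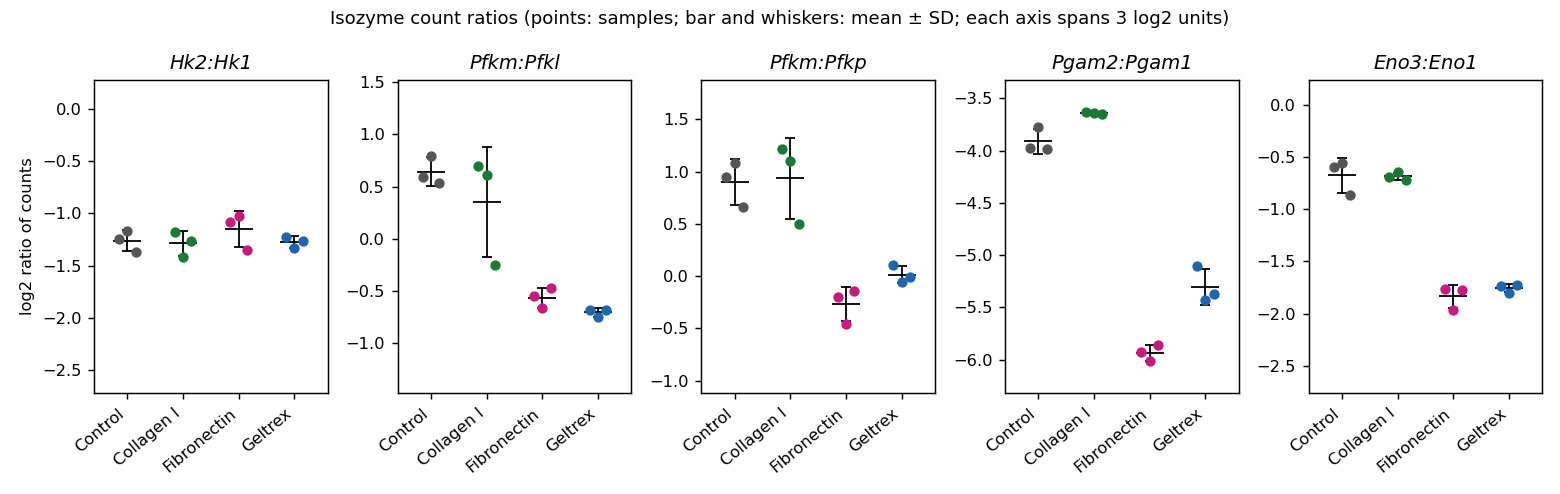
Log2 ratio of counts (y axis, each panel spanning 3 log2 units) for 5 isozyme pairs in the 4 groups; points are samples, and bars with whiskers are the mean ± SD of 3 samples. *Hk2*:*Hk1* overlaps in all groups, the other 4 ratios are lower on fibronectin and Geltrex™ than in the control, *Pgam2*:*Pgam1* alone separates all 4 groups without overlap, and Collagen I replicate 3 is the low green point of both *Pfkm* panels.

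Shares of each enzyme were compared after dividing by the length of all annotated exons of a gene. On this scale *Eno3* made up 65.9% ± 2.6 (SD, n = 3) of enolase in the control, 65.8% ± 0.57 on Collagen I, 46.4% ± 1.9 on fibronectin, and 47.8% ± 0.71 on Geltrex™. *Pfkm* made up 68.7% ± 2.3 of phosphofructokinase in the control, 65.4% ± 7.8 on Collagen I, 49.0% ± 2.0 on fibronectin, and 48.5% ± 0.82 on Geltrex™. Both muscle forms went from most of their enzyme to a little less than the rest of it on this scale. The *Pgam2* share of phosphoglycerate mutase was 13.6% ± 1.0 in the control, 15.9% ± 0.08 on Collagen I, 3.70% ± 0.19 on fibronectin, and 5.63% ± 0.66 on Geltrex™. By contrast, *Hk2* made up between 36.9% and 39.2% of hexokinase in all groups. The levels depend on the length used, since all annotated exons of *Eno1* together cover 5379 bases against 2027 for its longest transcript. By longest transcripts *Eno3* made up 44.8% of enolase in the control and 26.7% on fibronectin, so which enolase form predominated in the control was not settled by these data, whereas the lower share on fibronectin and Geltrex™ held with either length and with raw counts.

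**Figure D4:**
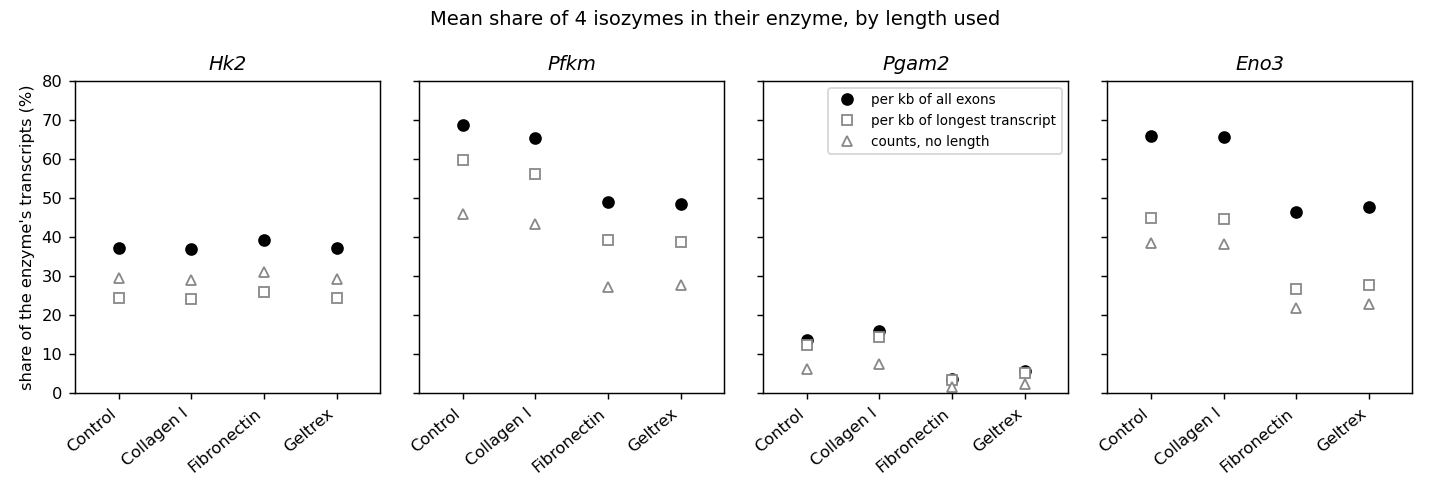
Mean share (y axis, percent of the enzyme's reads) of *Hk2*, *Pfkm*, *Pgam2*, and *Eno3* in the 4 groups, per kilobase of all exons (filled circles), per kilobase of the longest transcript (squares), or from raw counts (triangles). The level of a share depends on the length used, but for *Pfkm*, *Pgam2*, and *Eno3* all 3 are lower on fibronectin and Geltrex™ than in the control.

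Near-identical copies could share reads with the general forms, since the rule for multiply mapped reads is not stated. *Eno1b* (ENSMUSG00000059040), whose coding sequence is 99.4% identical to that of *Eno1* with a run of 725 bases without a difference, had a mean of 85.4 CPM in the control, 95.9 on Collagen I, 88.5 on fibronectin, and 113 on Geltrex™. It rose with *Eno1* on Geltrex™ over the control (log2 fold change 0.40 ± 0.14, edgeR adjusted p = 0.0403), and reads of the pair cannot be told apart with certainty. With its counts added to *Eno1*, the mean log2 ratio of *Eno3* to *Eno1* was -0.84 in the control, -0.85 on Collagen I, -1.98 on fibronectin, and -1.91 on Geltrex™. The pseudogene *Pgam1-ps2* had a mean of 1.10 to 1.59 CPM, and the *Pgam1-ps1*, *Aldoart1*, *Aldoart2*, *Aldoa-ps3*, and *Aldoa-ps4* copies had at most a mean of 0.015 CPM in any group. Another gene entry named *Aldoa* (ENSMUSG00000114515, chr7:126800790-126809108, minus strand) was not examined, and its counts are not part of the *Aldoa* values. Of the *Pfkm* exons, 10.21% overlap *Gm26513* on the same strand, which had at most 12 counts in a sample, and *Hk1os*, antisense to 1.84% of the *Hk1* exons, had at most 25.

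The remaining genes of the pathway, from glucose uptake to lactate export, did not move one way. Of 23 such genes listed, 18 passed the filter on low counts. On fibronectin, *Slc16a1* was higher than in the control and *Gapdh*, *Bpgm*, *Ldha*, and *Ldhb* were lower, 5 of 18 in all (27.8%, against 31.9% of all genes). On Geltrex™, *Slc2a1*, *Aldoc*, *Tpi1*, *Pgk1*, and *Slc16a3* were higher and *Bpgm* and *Ldhb* lower, 7 of 18 (38.9%, against 33.0%). On Collagen I 0 of 18 were called by edgeR or DESeq2, with 2 at an unadjusted p under 0.05. Of these, *Gapdh*, *Bpgm*, *Ldha*, *Slc16a1*, and *Tpi1* were named after their values were seen. The median log2 fold change of the 18 was 0.01 on fibronectin, 0.03 on Geltrex™, and 0.09 on Collagen I. Against fibronectin, 6 were higher and 1 lower on Collagen I (38.9%, against 45.0% of all genes). Against Geltrex™, 2 were higher and 4 lower on Collagen I (33.3%, against 37.1%). These shares lie near those of all genes. On fibronectin against Geltrex™, 1 was higher and 6 lower, 38.9% against 19.3% of all genes, of which 10.3% were higher and 9.06% lower.

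The 6 pathway genes with the widest called changes differed in level and direction. *Ldhb*, the lactate dehydrogenase subunit of oxidative tissue, was at 3.14, 2.13, and 2.63 CPM in the control samples, 3.47, 4.09, and 4.70 on Collagen I, 1.41, 0.92, and 1.24 on fibronectin, and 1.67, 1.61, and 1.44 on Geltrex™. Collagen I exceeded fibronectin 3.4-fold and Geltrex™ 2.59-fold for this gene (edgeR adjusted p = 1.33e-05 and 0.000121), and no fibronectin or Geltrex™ sample reached the control. *Slc2a4*, the insulin-regulated glucose transporter GLUT4, had only 8 to 33 counts per sample, and its Collagen I level was 2.53-fold that of fibronectin (adjusted p = 0.00805). *Aldoc* was 2.75-fold higher on Geltrex™ than in the control (adjusted p = 0.0184). The other 3 genes were highest on Geltrex™. *Slc2a1*, the general glucose transporter GLUT1, was at 67.4, 59.2, and 66.4 CPM in the control samples and at 95.1, 90.9, and 89.4 on Geltrex™, a rise of 1.43-fold (adjusted p = 4.95e-05). Relative to the control, *Pgk1*, phosphoglycerate kinase, rose 1.46-fold on Geltrex™ and *Slc16a3*, the lactate exporter MCT4, rose 1.71-fold (adjusted p = 0.00124 and 0.00222), and all 3 were also higher there than on fibronectin and on Collagen I.

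**Figure D5:**
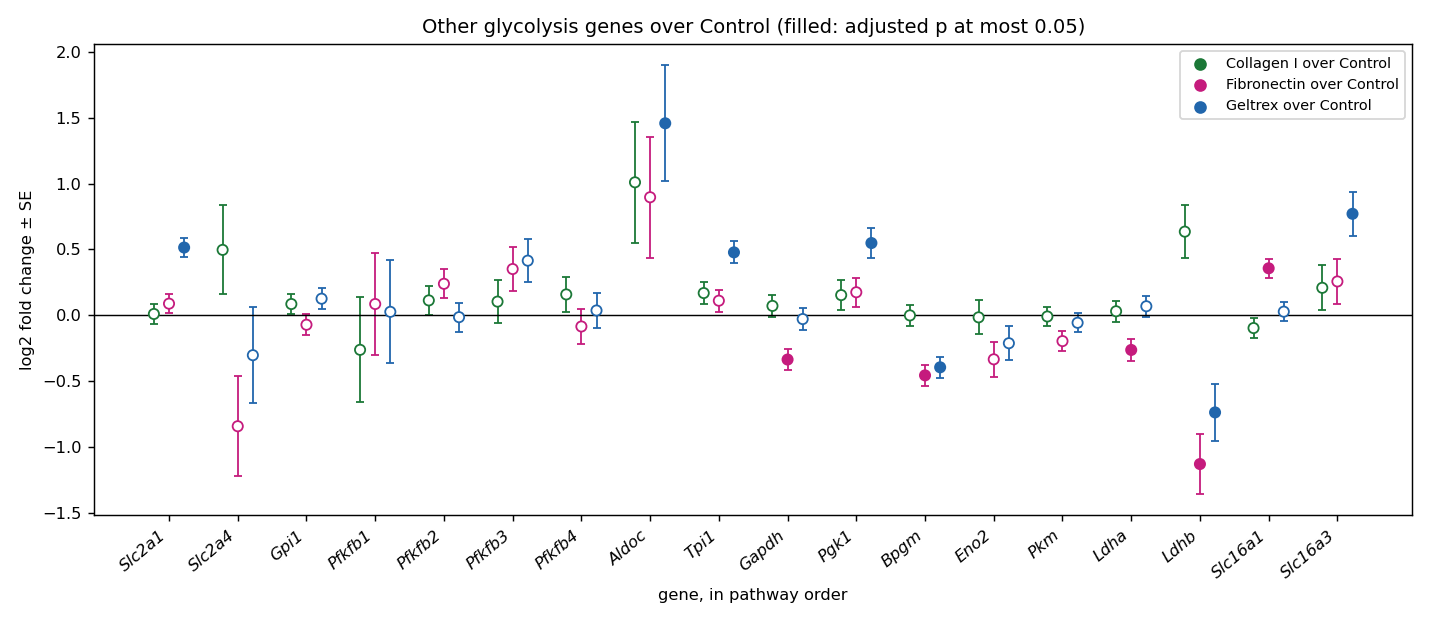
Log2 fold change over the control (y axis, ± SE) of the 18 other glycolysis genes tested (x axis, in pathway order from uptake to export), for Collagen I in green, fibronectin in magenta, and Geltrex™ in blue; filled points have an adjusted p of at most 0.05. Filled points lie on both sides of 0 on fibronectin and Geltrex™, *Ldhb* is the lowest at -1.13 on fibronectin, and *Aldoc*, with a log2 fold change of 1.46 on Geltrex™, has the widest errors among the filled points.

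The genes whose levels ran most closely with the muscle forms over the 12 samples were taken from all tested genes with a mean of at least 10 CPM. Pearson's r is given as a description without a test, since the samples fall into groups that share a coating. For *Pgam2* the nearest were *Myl1*, a fast myosin light chain (r = 0.994), *Atp2a1*, the calcium pump of fast fibers (0.993), and *Ubac1* (0.989). For *Eno3* they were *Pbxip1* (0.995), *Fxr2*, an RNA-binding protein (0.992), and *Ube2g2*, a ubiquitin-conjugating enzyme (0.991). For *Pfkm* they were *Tmed4* (0.985), *Plpp1*, a lipid phosphate phosphatase (0.981), and *Stat5b* (0.981), and for *Hk2* they were *Mlec* (0.955), *Mlxip*, a glucose-sensing transcription factor (0.920), and *Arhgap23* (0.890). No gene was among the nearest 3 of more than 1 muscle form.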

How the data were processed

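RNA was sequenced from C2C12 GFP cells in 4 groups of 3 samples. The table deposited holds unnormalized counts for every gene and sample, made by the authors with Trimmomatic (trimming), HISAT2 (alignment), and featureCounts (counting). Their versions, the genome build, and the rules for strand and multiply mapped reads are not given in the sources used here. All 55536 gene identifiers are in GENCODE M21 (GRCm38), which gave names, positions, and exon lengths.

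Genes were filtered with filterByExpr (minimum count 10, minimum total 15), scaled by TMM, and fitted in a single edgeR 4.0.16 quasi-likelihood model (R 4.3.3, 8 residual degrees of freedom). P-values were adjusted over all 14499 genes by the Benjamini-Hochberg method, and calls had an adjusted p of at most 0.05. The SE of a log2 fold change is its size divided by the root of F. CPM are counts relative to the TMM-scaled library size. Log2 ratios of 2 genes' counts had 0.5 added to each count. They were tested with an exact permutation of the 12 samples over the 4 groups (369600 arrangements) on the F statistic. The p-value is the share of arrangements with an F at least as large as that observed, without direction. Both tests were checked on simulated data. Among the glycolysis genes given by value, counts limit the precision most for *Aldoc*, *Slc2a4*, and *Ldhb* (22 to 110 counts per sample). Among the 10 isozyme genes they do so most for *Pgam2*.

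The text names all 10 isozyme genes, *Aldoc*, near-identical copies, the 6 other glycolysis genes with the widest called changes, and the 3 genes most correlated with each of 4 muscle forms. These genes and lists were chosen with earlier results of these data known. Alternatives were DESeq2 1.42.0, other scaling and filters, fits of 2 groups, a replicate block, other lengths, and leaving out each sample. Summing the Geltrex™ samples was chosen after seeing the data.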

Additional observations from a re-analysis of the deposited data

How the results depend on the processing

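The 6 tests of isozyme ratios kept their side of the threshold with 0 or 5 added to each count, with near-identical copies added, and without any 1 sample, where the adjusted p ran from 0.00273 to 0.0143 for *Pfkm*:*Pfkl*, 0.000584 to 0.0138 for *Pfkm*:*Pfkp*, 0.00526 to 0.0377 for *Aldoa*:*Aldoc*, 0.00039 to 0.000779 for *Pgam2*:*Pgam1*, 0.000974 to 0.0138 for *Eno3*:*Eno1*, and 0.0992 to 0.903 for *Hk2*:*Hk1*. Deviations from the group mean correlated from -0.154 to 0.225 between same-numbered samples of different groups. This lies within the range for samples with different numbers, -0.300 to 0.328, so the numbers were not taken as pairs. Collagen I and fibronectin, however, had positive correlations for every number (0.047, 0.169, and 0.225). When the fit held a block for the replicate number, the isozyme genes called were 0, 5, and 8 for Collagen I, fibronectin, and Geltrex™ against the control, 5 and 7 for Collagen I against fibronectin and Geltrex™ (both without *Pfkp*), and 3 between fibronectin and Geltrex™, and the 5 ratios that passed still passed (adjusted p from 0.0104 to 0.0229, *Hk2*:*Hk1* 0.53).

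With the 3 Geltrex™ samples summed into 1, the lone sample being assumed to vary like the other groups, 5 isozyme genes were called against the control, 3 against Collagen I, and 1 against fibronectin, which by construction rest on fewer samples. Between fibronectin and Geltrex™, where 3 were called, DESeq2 called 6, edgeR with no filter on low counts 5, and a fit of only those 2 groups 7; leaving out 1 sample gave 3 to 6, with 6 without Collagen I replicate 3, and the cause was not tested. The other glycolysis genes called there ran from 4 (without fibronectin replicate 2 or Geltrex™ replicate 1 or 2) to 8. Signs changed without 1 sample only for log2 fold changes that were not called: *Hk1* in Collagen I over fibronectin (-0.0281 to 0.0576), *Pfkp* in fibronectin over Geltrex™ (-0.0490 to 0.0100), and, in Collagen I over the control, *Hk2* (-0.0223 to 0.132), *Pfkm* (-0.152 to 0.140), *Pgam1* (-0.0330 to 0.0993), and *Eno3* (-0.0175 to 0.173).

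Shares depended on gene length, in the order control, Collagen I, fibronectin, and Geltrex™. From raw counts they were 29.4, 29.1, 31.1, and 29.2% for *Hk2*, 45.9, 43.5, 27.2, and 27.6% for *Pfkm*, 6.23, 7.42, 1.60, and 2.47% for *Pgam2*, and 38.5, 38.3, 21.9, and 22.9% for *Eno3*. By the longest transcript they were 24.4, 24.1, 25.9, and 24.3% for *Hk2*, 59.8, 56.1, 39.4, and 38.7% for *Pfkm*, 12.3, 14.5, 3.32, and 5.08% for *Pgam2*, and 44.8, 44.6, 26.7, and 27.8% for *Eno3*, and 99.99, 99.98, and 99.95% for *Aldoa* in the control, on Collagen I, and on Geltrex™.

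With 3 samples a group, steps as small as those of *Hk1*, *Hk2*, and *Pfkp* were called in some fits and not in others. A p-value that misses the threshold does not show equal levels. Ratios with *Aldoc*, at 5 to 17 counts a sample, are the least precise.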
